A study of Mus musculus with 321 samples.

Results

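The collagen genes are the protein-coding mouse genes whose symbol is Col, a chain type number, a and a chain number, such as Col1a1. The annotation held 44 of them among 21887 protein-coding genes. They were followed through lists of open chromatin, of repressive histone marks and of Tcf-1 binding, over the gene body and 50 kb on each side. Tcf-1, the product of Tcf7, is a high mobility group transcription factor of T cell development. Open chromatin came from ATAC-seq, which cuts accessible DNA with the transposase Tn5, in 12 libraries. They were 2 of Tcf-1-/- deltaVII CD4+CD8+ (DP) T cells (KO DP), 2 of wild-type C56BL/6 DP T cells (WT DP), 4 of NIH3T3 fibroblasts given a Tcf-1 retrovirus (Tcf-1 RV) and 4 of NIH3T3 given the empty virus (Empty RV). DP cells were taken from mice and purified by FACS, with no age in the labels, and NIH3T3 is an immortal NIH/Swiss mouse fibroblast line, used here at passages 8-12. Day tags in the data put replicates 1 and 2 of each NIH3T3 group at day 2, and replicates 3 and 4 at day 4. H3K27me3, the Polycomb mark, and H3K9me3, the mark of constitutive heterochromatin, were profiled by ChIP-seq in 2 replicates each of NIH3T3 cells without Tcf-1. Tcf-1 binding was a pooled list of 40562 ChIP-seq summits (the point of strongest signal in each peak) from Tcf-1 RV cells, tagged day 2.

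Collagens are the structural proteins of the extracellular matrix, built from chains that wind into a helix. Fibrillar chains (Col1a1, Col1a2, Col3a1, Col5a1 and Col5a2 in most connective tissue, Col2a1 and Col11a1 in cartilage) form the fibers that fibroblasts secrete. Network chains such as Col4a1 and Col4a2 make up basement membranes, the FACIT chains such as Col9a1, Col12a1 and Col14a1 sit on fibril surfaces, and the beaded filament chains of type VI surround cells. Thymocytes are not a known main source of fibrillar collagen. The 44 genes comprised 11 fibrillar, 9 network, 9 FACIT, 6 beaded filament, 4 transmembrane and 2 multiplexin genes, Col7a1 of the anchoring fibrils and 2 others, Col26a1 and Col28a1. They lay on 15 chromosomes, and their bodies were long, with a median of 114.41 kb against 17.169 kb for all protein-coding genes. Neighbors such as Col3a1 and Col5a2 or Col4a1 and Col4a2 share window bases, so the 44 windows formed 36 separate stretches of 9.21 Mb.

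The peak lists differed in length, which limits every comparison of them. KO DP lists held 11171 and 12209 peaks and WT DP lists 23249 and 30985, while Tcf-1 RV lists held 36583 to 62639 and Empty RV lists 22778 to 58026. Read depth behind the peaks is unknown, since the lists give positions only. Of 11 DP thymocyte genes such as Cd3e and Rag1, 2 and 6 had a peak within 1 kb of a gene end in the KO DP lists, against 10 and 11 in the WT DP lists and 0 in each NIH3T3 list. Of 8 fibroblast genes such as Pdgfra and Fbn1, 1 and 1 did in KO DP, 2 and 3 in WT DP, 6 to 7 in Tcf-1 RV and 4 to 7 in Empty RV. No list held a peak at any of 5 B cell genes, and each DP list had at most 1 of 5 myeloid, 1 of 5 thymic epithelial and 1 of 4 endothelial genes. Fibroblast lists had more of the 5 myeloid genes, with 1 to 3 in Tcf-1 RV and 0 to 3 in Empty RV. They had at most 1 thymic epithelial gene and 0 endothelial genes. Peak lists cannot show the deletion in Tcf7 itself.

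Collagen windows took a larger share of the open regions in fibroblasts than in thymocytes, although most of them also held a thymocyte peak. KO DP lists held 39 and 41 peaks in the collagen windows and WT DP lists 66 and 98. Tcf-1 RV lists held 296.5 ± 77.1 on average and Empty RV lists 247.3 ± 100.9 (SD, n = 4 each). Per 10000 peaks of the library this was 34.9 and 33.6 in KO DP and 28.4 and 31.6 in WT DP. It was 59.01, 60.9, 63.4 and 65.1 in Tcf-1 RV (62.1 ± 2.71) and 58.4, 58.96, 61.1 and 63.1 in Empty RV (60.4 ± 2.14, SD, n = 4 each). Every fibroblast library thus gave collagen windows a larger share of its peaks than any DP library, while the fibroblast groups overlapped. The exact permutation test of 2 against 4 libraries cannot go below p = 0.133. A peak in every WT DP list was found at 28 of the 44 genes (63.6%, against 73.8% of all genes), and in every Empty RV list at 40 (90.9%, against 73.4% of all genes). No DP list held a peak at 11 of the 44 genes, a share close to the 22.2% of all genes. Col1a2, Col3a1 and Col5a2 were among the 11.

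**Figure D1:**
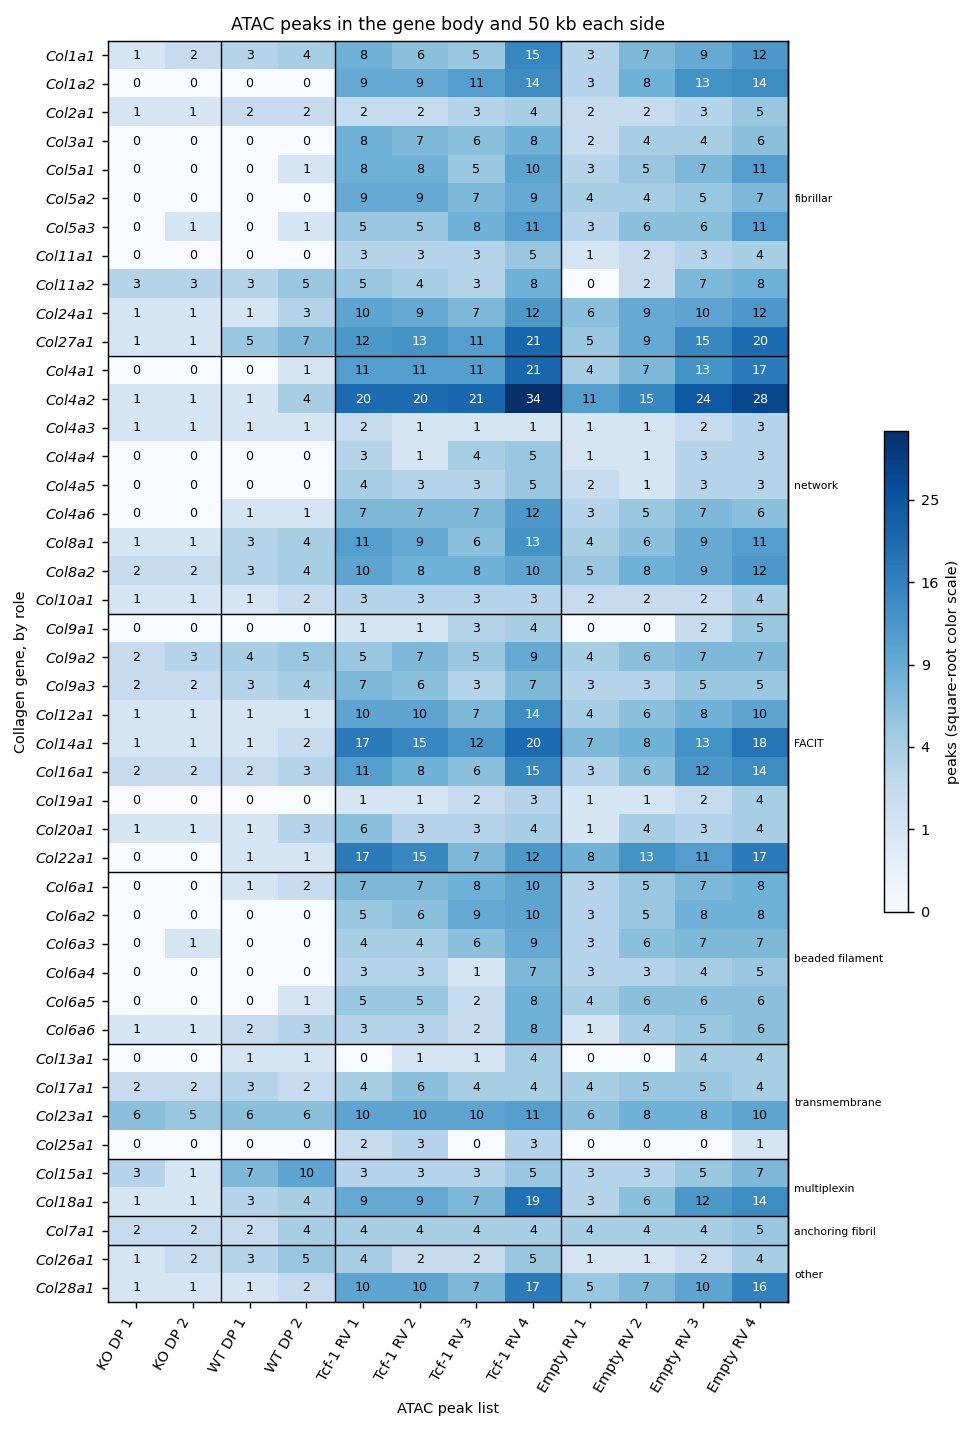
Number of ATAC peaks in the body and 50 kb each side of the 44 collagen genes (rows, grouped by role) in each of the 12 lists (columns: KO DP, WT DP, Tcf-1 RV, Empty RV), on a square-root color scale. Col15a1 and Col27a1 have fewer peaks in both KO DP lists (3 and 1, 1 and 1) than in both WT DP lists (7 and 10, 5 and 7), and Col4a2 has the most peaks in the fibroblast lists (11 to 34).

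Merging the peaks of all 12 lists gave 530 regions in the collagen windows. Of these, 17 (3.21%) were called in both WT DP libraries and in no Empty RV library, where 10.7% of all regions were. In reverse, 93 (17.5%) were called in all 4 Empty RV and in neither WT DP library, where 13.3% of all regions were, and 30 (5.66%) in all 6, against 8.22%. Inside gene bodies and away from gene ends, 9 collagen regions (3.35%, Wilson 95% interval 1.77 to 6.24) were WT DP only, against 11.5% of all such regions. There 54 (20.1%, 15.7 to 25.3) were Empty RV only, against 14.7%. These intervals cover counting error only. With an equal number of the widest peaks in each library, 8.02% of collagen regions were WT DP only and 26.2% Empty RV only, against 21.5% and 15.5% of all regions. These equal-number shares are of a smaller set of collagen regions than the 530. They can be set beside the shares of all regions, but not directly beside the 3.21% and 17.5%. Without the shortest list, Empty RV replicate 1, 27% of the collagen regions were Empty RV only, against 20.7% of all regions, and without WT DP replicate 1, 35 (6.60%) were WT DP only, against 17% of all.

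Few collagen promoters were open in thymocytes. The 35 collagen genes in the promoter table had 38 promoters, taken as 250 bases before to 50 after each RefSeq start. No collagen promoter held a peak in both KO DP libraries, where 31.9% of all promoters did. Only that of Col27a1, a fibrillar collagen of cartilage, was open in both WT DP libraries, where 40.1% of all promoters were. It was open in neither KO DP library, a state shared by 4.57% of all promoters. All 4 Tcf-1 RV libraries had 10 of the 38 open (38.5% of all promoters) and all 4 Empty RV libraries 7 (30.6%). The 7 were those of Col1a2, Col10a1, Col11a1, Col16a1 and Col27a1 and a pair of Col6a2, and the same 7 were open in all 8 fibroblast libraries (30.3% of all promoters). Those of Col3a1, Col5a3 and Col6a1 were open in 4 of 4 Tcf-1 RV and 3 of 4 Empty RV libraries, all lacking it in the shortest list, Empty RV replicate 1. In no fibroblast library were 22 of the 38 open, against 53.5% of all promoters.

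A promoter is shown for each of these states, from RefSeq on GRCm38.p6, written on the gene's own strand. Col27a1 (chr4:63215162-63215461, plus strand) is the collagen promoter with a peak in both WT DP and neither KO DP library. Capitals mark its bases inside that WT DP region. Loss of the region and shorter KO DP lists cannot be told apart here. Col3a1 (chr1:45311288-45311587, plus) had a peak in fibroblast lists and in no DP list, and is low in GC (37.7%). Col6a2 (chr10:76623581-76623880, minus) was open in all 8 fibroblast libraries, and Col9a2 (chr4:121039316-121039615, plus) was closed in all 12 libraries and under H3K27me3. In the last pair, Col6a2 and Col9a2, the capitals mark the Tcf-type motif CTTTGAA or CTTTGAT.
Col27a1 promoter: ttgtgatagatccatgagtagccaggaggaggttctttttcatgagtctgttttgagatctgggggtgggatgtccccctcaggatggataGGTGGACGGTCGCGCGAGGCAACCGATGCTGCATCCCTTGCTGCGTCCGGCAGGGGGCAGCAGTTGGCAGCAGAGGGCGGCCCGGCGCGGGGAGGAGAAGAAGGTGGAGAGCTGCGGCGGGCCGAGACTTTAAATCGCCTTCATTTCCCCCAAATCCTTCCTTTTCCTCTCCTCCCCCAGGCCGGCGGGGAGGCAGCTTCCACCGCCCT
Col3a1 promoter: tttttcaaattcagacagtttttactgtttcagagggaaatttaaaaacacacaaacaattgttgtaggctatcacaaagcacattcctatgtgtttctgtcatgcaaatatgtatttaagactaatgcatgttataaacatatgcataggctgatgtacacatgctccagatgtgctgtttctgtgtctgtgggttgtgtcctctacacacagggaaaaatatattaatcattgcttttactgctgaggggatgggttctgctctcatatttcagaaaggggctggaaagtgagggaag
Col6a2 promoter: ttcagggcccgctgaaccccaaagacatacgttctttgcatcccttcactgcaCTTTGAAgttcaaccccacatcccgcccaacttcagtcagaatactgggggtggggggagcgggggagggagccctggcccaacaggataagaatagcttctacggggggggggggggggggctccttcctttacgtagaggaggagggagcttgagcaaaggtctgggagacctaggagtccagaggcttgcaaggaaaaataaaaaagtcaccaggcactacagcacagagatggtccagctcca
Col9a2 promoter: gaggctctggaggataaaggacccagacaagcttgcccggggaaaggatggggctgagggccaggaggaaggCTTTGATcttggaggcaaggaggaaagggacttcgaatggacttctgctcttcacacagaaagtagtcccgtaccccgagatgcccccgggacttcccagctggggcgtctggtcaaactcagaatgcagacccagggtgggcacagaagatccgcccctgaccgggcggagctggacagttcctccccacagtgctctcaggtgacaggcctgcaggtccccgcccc
That motif, searched as CTTTGAA and CTTTGAT on both strands, occurred in 5 of the 38 collagen promoters (13.2%), those of Col6a2, Col9a1, Col9a2, Col13a1 and Col15a1, and in 7.57% of all promoters. No collagen promoter held a Tcf-1 summit, where 6.74% of all promoters did.

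In the thymocyte lists as deposited, most WT DP regions inside collagen genes were not called in KO DP. Among the DP regions of the collagen windows, 64 were called in both WT DP libraries. Of these 64, 25 were called in neither KO DP library (39.1%, Wilson 95% interval 28.1 to 51.3), where 45.7% of all regions were, and 35 in all 4 libraries (54.7%), against 42.1%. None was called in both KO DP and neither WT DP library (95% upper bound 3.66%), where 0.142% of all regions were. The share varied with place, as it did over all genes. Inside collagen bodies, 16 of 18 were absent from KO DP. Of the 17 away from gene ends (more than 1 kb from any gene boundary), 15 were (88.2%, 65.7 to 96.7), against 63.5% of such regions in all genes. Of the 15, 4 lay in Col15a1 and 3 in Col27a1. The intervals cover counting error only and take regions as independent, so they do not measure the spread between genes or libraries. These 15 include the Col27a1 promoter region and its neighbor, which lay 1244 and 1687 bp from the annotated boundary of the gene. In the flanks, 2 of 31 regions at gene ends were absent from KO DP and 27 were kept, against 16.8% absent at all gene ends. Away from gene ends, 3 of 7 flank regions inside other genes (42.9%, against the same 63.5%) and 4 of 8 between genes (50%, against 68.8% of all such regions) were absent.

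The calls differed when lists of equal length were compared. With each library cut to its 11171 widest peaks, 25 collagen regions were left in both WT DP libraries, of which 1 was absent from KO DP (4.00%, against 14.7% of all regions). Then 7 of 45 collagen regions were called in KO DP alone (15.6%, against 6.18%), and a single region in both WT DP libraries remained inside a collagen body. Without WT DP replicate 1, 56 of 97 regions were absent from KO DP (57.7%, against 59.7% of all). With 2 libraries a genotype the smallest exact two-sided p is 0.333, so no gene could pass a test, and loss of regions and shorter KO lists cannot be told apart. Fewer of the DP marker genes had a peak in KO DP, as given above, and their part was not tested. In bulk libraries, fewer cells of a type and less openness per cell cannot be told apart.

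Regions called in both WT DP and neither KO DP library, the lost DP regions, fell in the windows of 15 of the 44 genes, where 47.4% of all genes had such a region. Col15a1 (chr4:47207655-47313167), which encodes a collagen of basement membrane zones, had the most. Its window held 3 and 1 peaks in KO DP and 7 and 10 in WT DP. Of its 7 regions in both WT DP libraries, 5 were absent from KO DP. Inside the gene were 4 of them, at 4:47234853-47235169, 4:47251100-47251366, 4:47272765-47273158 and 4:47289617-47289909, and the other lay 1443 bp from Tgfbr1, a TGF-beta receptor gene. None of the 5 was open in any of the 8 fibroblast libraries. Of all lost DP regions away from gene ends, 31.9% had a peak in any fibroblast library. In the collagen windows 11 of 22 such regions did (50%), so Col15a1 differed from other collagen genes in this.

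**Figure D2:**
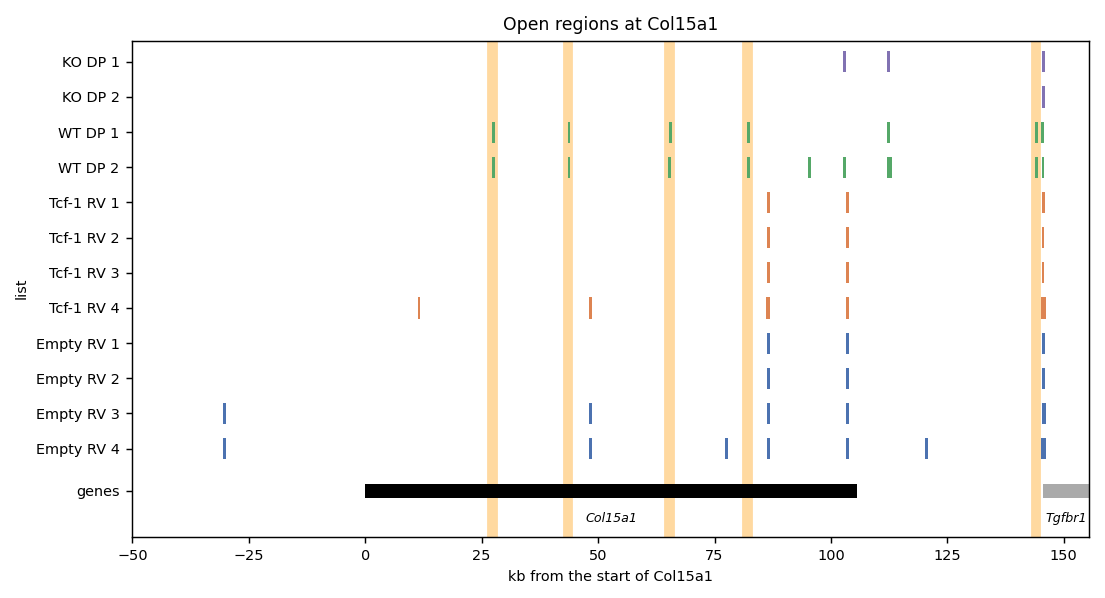
ATAC peaks in each of the 12 lists (rows) along the Col15a1 window, as distance in kb from the gene's start, with genes below and the 5 regions called in both WT DP and neither KO DP library shaded. The shaded regions hold green WT DP peaks only, and the fibroblast peaks inside the gene lie elsewhere.

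Col27a1 (chr4:63214009-63334991) had 1 and 1 peaks in KO DP and 5 and 7 in WT DP. Of its 5 regions in both WT DP libraries 4 were absent from KO DP. They included the promoter region at 4:63215253-63215642 printed above, and its neighbor at 4:63215696-63216148. The fibroblast lists called the promoter region in 8 of 8 libraries and the neighbor in 3.

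Col8a1, a network chain of vessel and corneal matrix, Col18a1, the source of endostatin, and Col9a2, a cartilage FACIT chain, had 2 lost regions each. Col8a1 had 1 and 1 peaks in KO DP and 3 and 4 in WT DP, and Col18a1 likewise 1 and 1 against 3 and 4. Col9a2 had 2 and 3 in KO DP and 4 and 5 in WT DP. Genes were named here for their lost regions, so the lower KO DP counts follow from that choice, and 98.9% of all genes with at least 2 lost regions had every KO DP count below every WT DP count. Over the 33 collagen genes with a DP peak 15 had such counts (45.5%, against 57.4% of all genes with one). A region each was lost at Col1a1, Col2a1, Col4a6, Col6a1, Col6a6, Col8a2, Col11a2, Col13a1, Col22a1 and Col26a1. Several of these lay at neighbors, such as the region at Col1a1, which was 11 bp from Ppp1r9b, and that at Col8a2, at an end of Map7d1. The transmembrane gene Col23a1 had 6 and 5 peaks in KO DP and 6 and 6 in WT DP, which overlapped.

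In fibroblasts, the share of regions gained with Tcf-1 was low at collagen genes and close to that of all regions. A region was counted as gained when it was called in each of the 4 Tcf-1 RV libraries but in none of the 4 with the empty virus, and as lost in the reverse case. Of 492 regions in the collagen windows 4 were gained (0.813%, Wilson 95% interval 0.317 to 2.07), where 1.08% of all regions were. Only 1 was lost (0.203%), where 0.110% of all were, and 22.6% were called in all 8 libraries, against 24% of all. For a single region this split has a Fisher exact two-sided p of 0.0286, the smallest that 4 against 4 allow. That p follows from the rule for every gained or lost region and is not adjusted for the 77882 regions screened. Just outside the rule were 6 regions in 4 Tcf-1 RV and 1 Empty RV library (1.22%, against 0.863% of all regions) and 15 in 3 and 0 (3.05%, against 2.58%). The reverse patterns held 0 collagen regions each, against 0.252% and 0.467% of all regions.

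The 4 gained regions lay at Col3a1, Col5a2, Col10a1 and Col12a1, so 4 of 44 genes had a region of this kind in their window, where 5.29% of all genes did. Of the 29 collagen genes with a body of at least 50 kb 2 did, Col5a2 and Col12a1, where 10.8% of such genes did. All 4 regions held a Tcf-1 summit (81% of all gained regions did), none lay in an island of either mark (89.9% of all gained regions lay in neither) and none was open in both WT DP libraries (98.6% of all gained regions were not). The first, at 1:45287777-45288320, lay 23218 bp outside Col3a1 and its summit scored 92.6. The second, at 1:45380357-45380708, lay inside Col5a2 and 30651 bp from Col3a1, and its summit scored 178.9, at or above 99.7% of all summits. The score is the authors' own, with no stated scale. The third, at 10:34379630-34380117, lay inside Nt5dc1 and 9864 bp from Col10a1, the collagen of hypertrophic cartilage, with a score of 135.004. The fourth, at 9:79680606-79681282, lay inside Col12a1, with a score of 22.4. The lost region, at 6:4530979-4531344, lay inside Col1a2 and held no summit, so 1 of 44 genes had a lost region (0.498% of all genes).

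**Figure D3:**
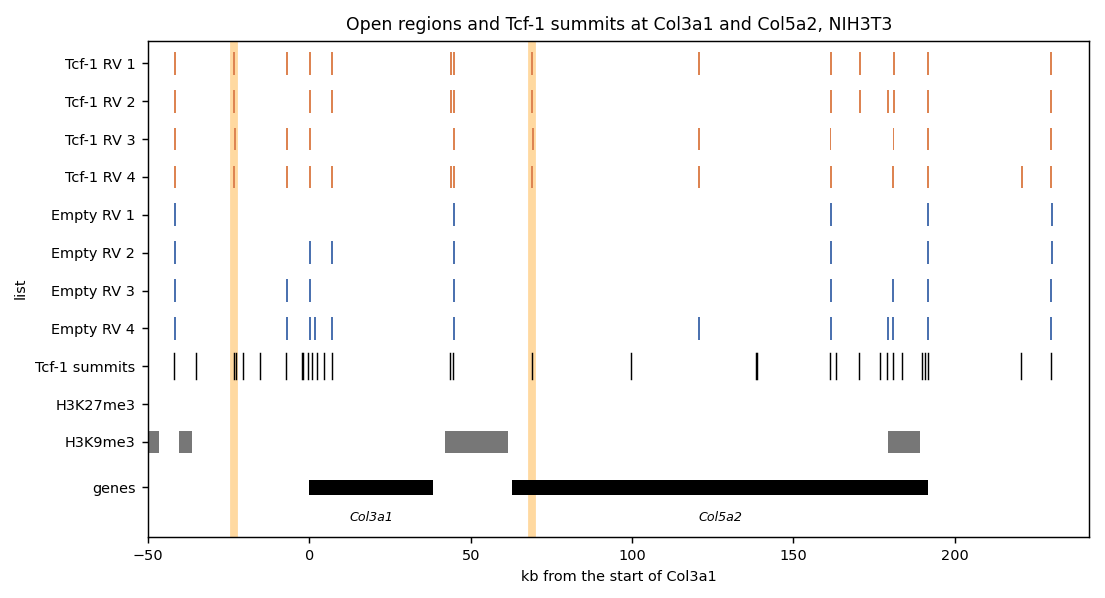
ATAC peaks of the 4 Tcf-1 RV and 4 Empty RV libraries, Tcf-1 summits, H3K27me3 and H3K9me3 islands present in both replicates, and genes across the Col3a1 and Col5a2 windows, as distance in kb from the start of Col3a1, with the 2 gained regions shaded. Each gained region holds a summit and orange Tcf-1 RV peaks in 4 of 4 rows, with 0 of 4 blue Empty RV rows, and no H3K27me3 island is present.

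The gained count depended on single libraries and on the day. Without Tcf-1 RV replicate 3 it was 18 (3.66%, against 3.39% of all regions), and without Empty RV replicate 4 it was 9 (1.93%, against 1.86%). Day 2 libraries alone gave 67 gained and 2 lost collagen regions (20.7% and 0.617%, against 17.7% and 0.717% of all regions). Day 4 libraries alone gave 9 and 10 (1.97% and 2.18%, against 2.11% and 3.46%). Taking equal replicate numbers as pairs, 25 regions were called in Tcf-1 RV only in at least 3 of 4 pairs and in no pair in Empty RV only (5.08%, against 4.52%), and 1 in the reverse.

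Counted per gene, Col3a1, Col5a2, Col6a1, Col6a2 and Col23a1 had more peaks in Tcf-1 RV than in Empty RV cells in all 4 pairs. This was 11.4% of the 44, against 3.93% of all genes with a fibroblast peak. Col3a1 and Col5a2 share window bases, as do Col6a1 and Col6a2, so their counts are not independent. Collagen bodies are also longer (median 114.41 kb against 17.169 kb), and the part of length was not tested. Col3a1 held 8, 7, 6 and 8 peaks in Tcf-1 RV and 2, 4, 4 and 6 in Empty RV. The groups met at 6, and their means were 7.25 ± 0.957 and 4.00 ± 1.63 (SD, n = 4 each). Col5a2 held 9, 9, 7 and 9 peaks in Tcf-1 RV and 4, 4, 5 and 7 in Empty RV, and here the groups met at 7. Both genes gave an exact permutation p of 0.0571, with an adjusted p of 1. Col12a1 held 10, 10, 7 and 14 peaks in Tcf-1 RV and 4, 6, 8 and 10 in Empty RV, which overlapped. Col1a2 held 9, 9, 11 and 14 in Tcf-1 RV and 3, 8, 13 and 14 in Empty RV, which overlapped too.

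By the exact permutation test no collagen gene reached an unadjusted p under 0.05, where 0.638% of 18954 genes were higher and 0.0317% lower in Tcf-1 RV, and no gene of all those tested passed adjustment. The sign-flip test over 4 pairs, whose smallest p is 0.125, called none either. Per 10000 peaks of the library, 3 collagen genes were higher (Col3a1, Col12a1 and Col14a1; 1.67% of all genes) and 1 lower (Col15a1; 1.80% of all genes) at p = 0.0286, with an adjusted exact permutation p of 0.822 for each. On average 33 of the 44 genes held more peaks in Tcf-1 RV, 8 fewer and 3 equal numbers, and 73.6% of all genes held more. At day 2 the collagen counts were 37 higher and 1 lower (87.3% of all genes higher), and at day 4 they were 17 higher and 21 lower (29.5% higher and 47.2% lower of all genes). At day 2 the Tcf-1 RV lists were longer (47623 and 43527 peaks) than the Empty RV lists (22778 and 34601), and at day 4 they were 36583 and 62639 against 46819 and 58026.

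Tcf-1 summits were densest at Col1a2, Col3a1 and Col4a2, and 5 collagen genes had none. The collagen windows held 260 summits, and 39 of 44 genes had at least 1, where 72.1% of all genes did (86% of genes with a body of at least 50 kb, and 25 of 29 such collagen genes). Per 100 kb of window the median was 1.83 summits over the 44 genes and 1.59 over all genes. Col1a2 (chr6:4505618-4541543) had 13.2 per 100 kb, with 18 summits of which 2 were in the gene, and only 0.183% of all genes had as many or more. Col3a1 (chr1:45311538-45349706) had 12.3 with 17 summits, Col4a2 11 with 26, Col1a1 8.56 with 10, Col6a3 8.47 with 15, Col5a2 7.86 with 18 and Col8a1 7.38 with 17. All 17 summits of Col8a1 and 19 of the 26 of Col4a2 lay inside the gene, while all 10 of Col1a1 lay outside it.

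Collagens known as main products of fibroblasts (Col1a1, Col1a2, Col3a1, Col5a1, Col5a2, Col6a1 and Col6a2, 7 genes) had a median of 7.86 summits per 100 kb, with a range of 2.56 to 13.2. A list of 5 collagens of cartilage (Col2a1, Col9a1, Col10a1, Col11a1 and Col11a2) had a median of 0.774, with a range of 0 to 1.87. Other chains found in cartilage were not on that list, and of these Col9a2 had 4.32, within the range of the fibroblast chains, Col27a1 2.26 and Col9a3 0.806. Col12a1 had 1.80 and Col14a1 1.60, near the median of all genes. These groups share neighboring windows, carry no test and were chosen with earlier results known. Col4a3, Col7a1, Col9a1, Col11a1 and Col13a1 had no summit. Of the 260 summits 89 (34.2%) lay in a peak of an Empty RV library, against 35.5% of all summits, and 52.3% in a peak of any fibroblast library, against 53.5%. Both shares were close to those of all summits.

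**Figure D4:**
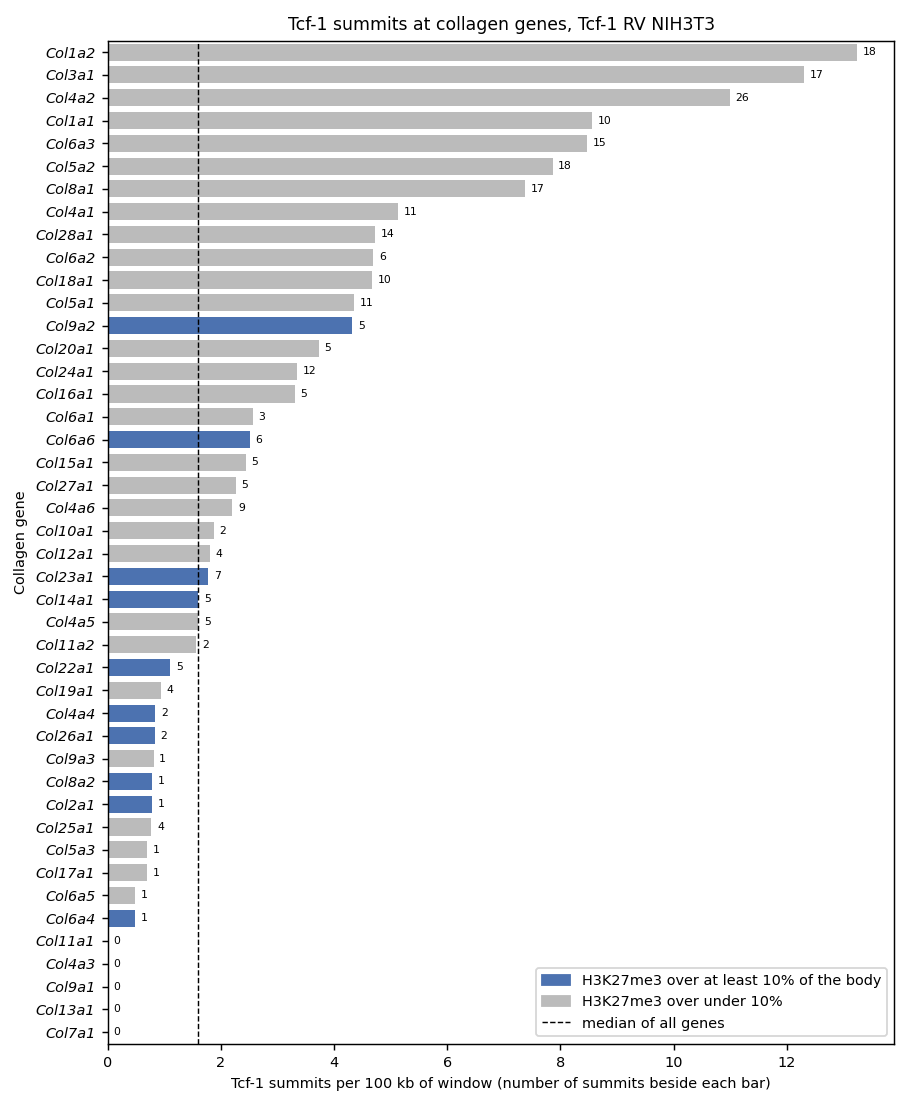
Tcf-1 summits per 100 kb of window for the 44 collagen genes, ordered by that density, with the number of summits beside each bar and the median of all genes dashed (1.59). Blue bars, genes with H3K27me3 over at least 10% of the body, reach at most 4.32 per 100 kb, and the highest gray bar, Col1a2, reaches 13.2.

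H3K27me3 covered the bodies of a subset of collagen genes. An end of the gene lay in islands of both replicates in 14 of 44 genes, where 16.5% of all genes had this (in genes with a body of at least 50 kb, 11 of 29 collagen genes and 16.6% of all). The 14 genes with an end in islands were Col2a1, Col4a3, Col4a4, Col6a4, Col6a6, Col8a2, Col9a1, Col9a2, Col13a1, Col14a1, Col19a1, Col24a1, Col26a1 and Col27a1. At least 10% of the body was covered in 13 of 44 genes, where 20.0% of all genes were, and 38 of 44 had an island in the window (67.4% of all genes). Col9a2 (chr4:121039566-121055325) was covered over 80.2% and 95.4% of its body in the 2 replicates and 80.2% in both at once. Col13a1, a transmembrane collagen of the neuromuscular junction, was covered over 80.3% and 77.7% (70.2% in both), and Col8a2, a chain of corneal matrix, over 78.5% and 71.2% (69.7%).

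Col23a1, another transmembrane collagen, was covered over 76.3% and 74% (67.6% in both), Col4a3, a chain of the kidney glomerular membrane, over 80.2% and 72.9% (66.3%), and Col2a1, the main cartilage fibril chain, over 65.7% and 60.9% (58.8%). The bodies of the 7 main fibroblast collagens had 0% in each replicate, as did 20 of the 44 genes (45.5%) and 71.5% of all genes. Their windows held more, with 26.6% at Col1a2, 14.2% at Col1a1, 13.3% at Col5a1 and at Col6a2, 7.16% at Col6a1 and 0% at Col3a1 and Col5a2 in both replicates at once. By role, 4 of 9 FACIT, 3 of 9 network, 2 of 6 beaded filament, 2 of 4 transmembrane and 1 of 11 fibrillar genes had at least 10% of the body covered. Starts of 9 of the 38 promoters, in 8 genes, lay in H3K27me3 (12.0% of all promoters), and none of those 9 held a peak in any of the 12 ATAC lists, which was so for 82.1% of all promoters in H3K27me3.

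Islands over collagen bodies were of modest enrichment, with a fold to control of 1.30 to 5.50 for H3K27me3 (median 1.99). The median of all its islands was 2.03. This is the authors' fold and not the plain ratio of reads. An island at Col2a1 with 85 ChIP and 120 control reads had a fold of 1.49. With only islands of at least 3-fold in both replicates, no collagen gene had an end or 10% of its body in H3K27me3. The median of all islands lies below 3-fold, and the share of all genes under this rule was not computed. Genes with at least 10% of the body in H3K27me3 had a median of 0.828 summits per 100 kb (n = 13) and those with less 2.56 (n = 31), against 1.52 and 1.61 over all genes. Their Empty RV peaks per 100 kb had medians of 1.82 and 3.20, against 2.38 and 2.73 over all genes. Over the 44 genes the Spearman correlation of H3K27me3 share of the window with summit density was -0.278, as a description only.

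**Figure D5:**
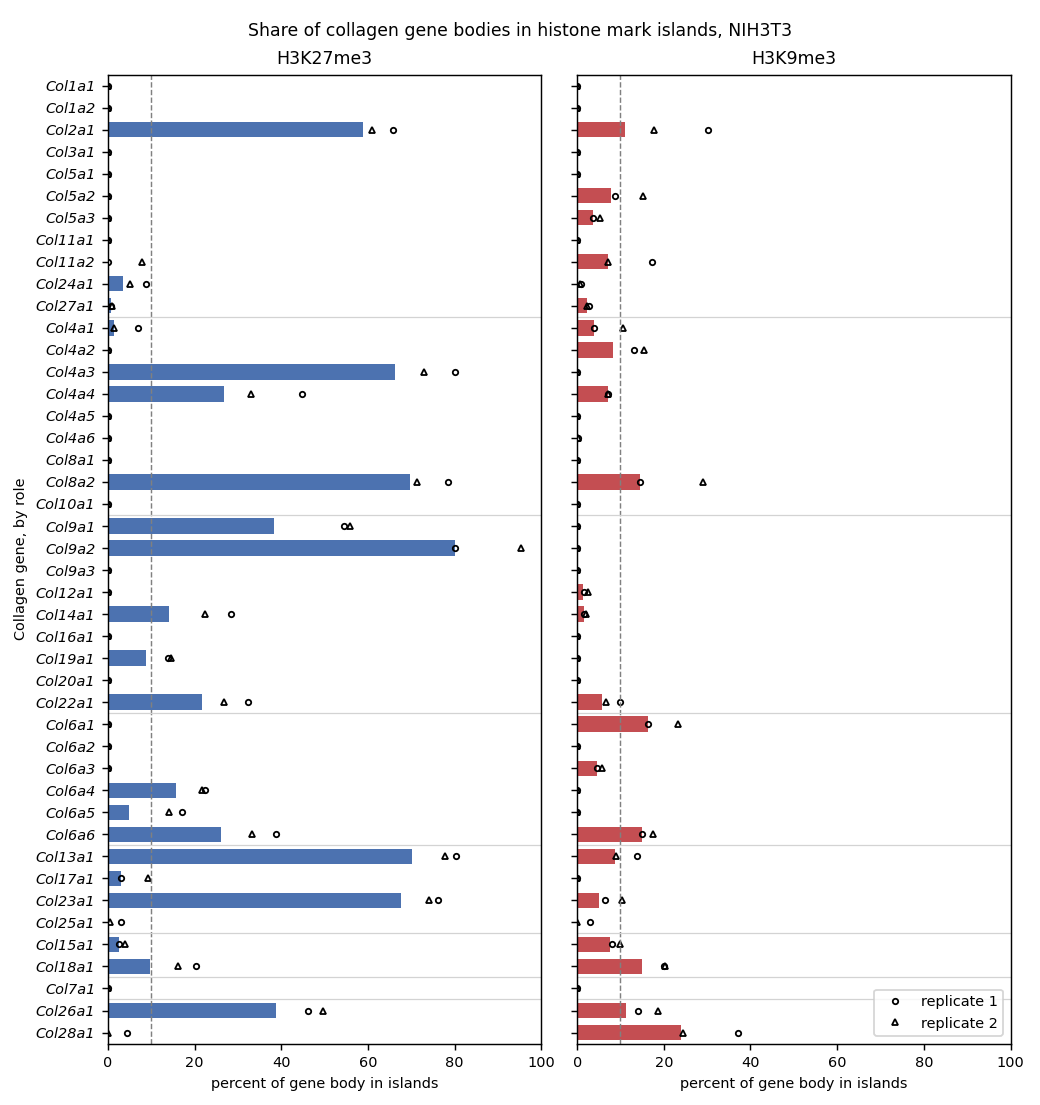
Percent of each collagen gene body in H3K27me3 (left) and H3K9me3 (right) islands in NIH3T3 without Tcf-1, with bars for bases in both replicates, open symbols for each replicate and a dashed line at 10%. H3K27me3 reaches 80.2% at Col9a2 and is 0 at Col1a1, Col1a2 and Col3a1, and H3K9me3 reaches at most 23.9%, at Col28a1.

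At collagen genes H3K9me3 was sparser than H3K27me3. An end of Col6a1, Col6a3 and Col28a1 lay in its islands (3 of 44, where 9.38% of all genes had this), and 7 of 44 genes had at least 10% of the body covered, where 12.0% of all genes did. An island lay in the window of 35 of 44 genes (56.6% of all genes). The highest was Col28a1 at 37.1% and 24.5% in the replicates (23.9% in both), followed by Col6a1 at 16.3% and 23.2% (16.3%). Col18a1 had 15% in both replicates at once, Col6a6 15%, Col8a2 14.5%, Col26a1 11.3% and Col2a1 11%. Col2a1, Col6a6, Col8a2 and Col26a1 had at least 10% of the body in each mark. The count of 7 was 11 in replicate 2 alone and 0 with islands of at least 3-fold. The median fold of all H3K9me3 islands was 2.11, and the share of all genes at 3-fold was not computed. No collagen promoter start lay in H3K9me3, where 5.94% of all promoter starts did.

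A list of 45 genes that make, process, bind or degrade collagen gave values beside those of the chains. In fibroblasts 3 of them had a gained region (5.29% of all genes): P3h2, a prolyl hydroxylase, Itgb1, the shared chain of collagen-binding integrins, and Mmp14, a membrane collagenase, which had 2. Mmp14 held 10, 10, 10 and 11 peaks in Tcf-1 RV and 5, 7, 8 and 10 in Empty RV. None of the 45 had a lost fibroblast region (0.498% of all genes). In DP cells 24 had a region absent from KO DP (47.4% of all genes, as above) and 35 a region kept (63.2% of all genes), and P4ha2, a prolyl hydroxylase subunit, had a region in KO DP alone (0.329% of all genes). An end lay in H3K27me3 in 2 (Colgalt2 and Tll2; 16.5% of all genes) and in H3K9me3 in 6 (9.38% of all genes). Summits lay in the windows of 40 of the 45 (72.1% of all genes). Their median was 3.27 per 100 kb, against 1.83 for the 44 collagen genes and 1.59 for all genes.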

How the data were processed

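Per the labels' protocols, ATAC-seq used 50,000 cells. The submitters' processing notes name the aligners Bowtie2 2.2.9 and STAR 2.5, the peak caller MACS2, the read tools Picard, Trim Galore and FastQC, and the builds GRCh37, GRCm38 and mm10, without saying which served which file. The deposited ATAC lists give peak positions only. The deposited histone lists have the SICER layout: ChIP and control read counts, a p-value, a fold ratio to control and an adjusted p-value per island. The deposited Tcf-1 list gives 1-base summits with a score on no stated scale. Only 16 of the 321 samples had a file analysed here. Genes, names and promoters came from RefSeq GRCm38.p6, taken as the build of the peaks, and 293 peaks on unplaced sequences were left out.

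Features were assigned to a gene body plus 50 kb each side, and peaks sharing at least 1 bp were merged to regions. Gene ends are within 1 kb of either gene boundary. Peak numbers per gene were compared by an exact two-sided permutation test with Benjamini-Hochberg adjustment over 18954 genes with an NIH3T3 peak, in Python 3.11.15 with numpy 2.4.6, and the test was checked on simulated data. Marks count where islands of both replicates overlap. Replicates are as labelled, and nothing says that NIH3T3 replicates were separate cultures, so p-values measure only the spread between these libraries. Equal NIH3T3 replicate numbers were taken as pairs, since the deviations of same-numbered libraries from their group means correlated at 0.187, 0.189, 0.125 and 0.260, although libraries of different number with the same day tag also correlated positively (0.0648 to 0.194). Genes named are those with a gained or lost region, the 5 highest in summits, summit density or body share of a mark, those with an end in a mark, and the fibroblast, cartilage and role groups. The members, lists and tests were chosen with earlier results of these data known.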

Additional observations from a re-analysis of the deposited data

Results flagged for a closer look

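Among 70 groups of 4 fibroblast libraries with a collagen count of at least 5, 12 had a library far from the other 3, and chance flags about 1 in 20 groups, more often where counts tie. In 8 of the 12 the library was Tcf-1 RV replicate 4, the longest list, with 21 peaks at Col4a1, 34 at Col4a2, 12 at Col4a6, 8 at Col6a6, 5 at Col11a1, 5 at Col15a1, 19 at Col18a1 and 11 at Col23a1, each above the other Tcf-1 RV libraries. Col5a2 was low in Tcf-1 RV replicate 3, at 7, and Col17a1 high in replicate 2, at 6. In Empty RV, Col6a5 was low in replicate 1, at 4, and Col7a1 high in replicate 4, at 5. The part of list length in these values was not tested.

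The fibrillar gene Col5a1 and the FACIT gene Col22a1 moved in opposite ways at the 2 days. Col22a1 held 17 and 15 peaks in Tcf-1 RV and 8 and 13 in Empty RV at day 2, but 7 and 12 in Tcf-1 RV and 11 and 17 in Empty RV at day 4, so the mean difference was 10.0 peaks larger at day 2. Col5a1 held 8 and 8 in Tcf-1 RV and 3 and 5 in Empty RV at day 2, and 5 and 10 in Tcf-1 RV and 7 and 11 in Empty RV at day 4, a change of 5.50 peaks. The difference between days was not tested, and 1362 genes in all (6.22%) had this pattern.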

How the results depend on the processing

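Gained fibroblast regions numbered 4, and 3 to 18 with a library left out, 2 in gene bodies alone, 2 with equal numbers of widest peaks, 25 with the replicate block (3 of 4 pairs), 67 at day 2 and 9 at day 4. In bodies alone this was 0.738% of regions, against 1.08% of all, and with equal numbers 0.826%, against 1.02%. Lost regions numbered 1 with any library left out, 2 at day 2 and 10 at day 4. Genes with p under 0.05 numbered 0, and 1 with 10 kb flanks, 1 with equal numbers of widest peaks and 4 per 10000 peaks. Shares of all genes per 10000 peaks are given above, and those for the other settings were not computed. DP regions lost numbered 25, and 27 to 56 with a library left out, 16 in bodies alone, 1 with equal numbers and 62 where at least 1 of 2 same-numbered pairs (a replicate block over libraries that share only a number, correlation -0.0505) showed it. Kept regions numbered 35, and 10 with 10 kb flanks, 2 in bodies and 23 with 50% coverage. Those in bodies were 11.1% of the regions in both WT DP libraries, against 42.1% of all such regions. The share of all regions kept at 50% coverage was not computed. Gained DP regions numbered 0, and 0 to 2 with a library left out, 7 with equal numbers and 3 with the block. With equal numbers this was 15.6% of regions, against 6.18% of all. With the block it was 2.97%, against 1.34% of all, and without KO DP replicate 1 it was 1.96%, against 0.646%. Lost regions in bodies numbered 16, and 16 to 29 with a library left out, 0 with equal numbers and 30 with the block. Shares of all regions were not computed for loss with the block, nor for all gene bodies under these settings. Chosen after the data were seen, leaving out Col15a1 gave 12 and leaving out Col27a1 13.

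WT DP only regions were 3.21% of collagen regions, 8.02% with equal numbers of widest peaks and 3.21 to 6.60% with a library left out. The count itself was 17 in the main setting and 19 with equal numbers. The equal-number shares of cell type classes are of a smaller set of regions than the 530, so they do not compare directly with the main shares. Empty RV only regions were 17.5%, 11.3% with 50% coverage and 17.5 to 26.98% with a library left out. Shared regions were 5.66%, 10.1% with equal numbers, 2.30% with 10 kb flanks, 1.04% in bodies and 2.64% with 50% coverage. H3K27me3 ends and bodies of at least 10% numbered 0 and 0 at 3-fold, and 21 genes had an island in the body. H3K9me3 bodies of at least 10% numbered 15 in either replicate, 10 to 11 in each alone and 0 at 3-fold, ends 1 at 3-fold, and 22 genes had an island in the body. Shares of all genes were not computed at 3-fold, in either replicate, in each alone, or for an island in the body. The collagen share of all summits was 0.641%, 0.365% in bodies and 0.345% for scores above the median, at medians of 1.18 and 0.886 per 100 kb. The peak difference turned to -0.5 with 10 kb flanks, -1 in the body, -1 at day 4 and -0.917 without Empty RV replicate 1 for Col1a2 (-0.917 to 2.75 with a library left out), and with equal numbers to -0.25 for Col12a1 and -2.5 for Col14a1. Position lists carry no depth, so weak and absent peaks cannot be told apart.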
